A study of Bos taurus with 15 samples.

Results

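ACY1 (ENSBTAG00000032304.3) and AASS (ENSBTAG00000012128.6) are 2 enzyme genes of amino acid metabolism, picked by identifier from the 21665 genes of the count table. They were chosen because the study lists both as upregulated with wild-type ARGFX, so the comparison of that group with the control is described here without a test. The RNA came from bovine fetal fibroblasts (BFFs), primary cells grown from the torso skin of 1 fetus aged 6 months and used at passage 4. Cells were electroporated with the empty vector pSF-CMV-Puro-COOH (control, 4 samples) or with the same vector carrying wild-type (WT) ARGFX (4 samples), mutant ARGFX (3 samples) or LEUTX (4 samples), each behind the constitutive CMV promoter and joined to a FLAG tag. Mutant ARGFX is a frameshift allele, whose predicted product is cut short ahead of the DNA-binding homeodomain. Puromycin at 4 μg/ml selected the transfected cells in every group, controls included, and RNA was taken after 72 h. All cultures come from the same fetus, so the spread between samples holds no variation between animals. The study dropped another mutant ARGFX sample as an outlier, and that sample was not used here.

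Aminoacylase 1, the product of ACY1, is a zinc enzyme of the cytosol that splits N-acetylated amino acids into acetate and the free amino acid, and so recycles the acetylated residues released when proteins are broken down. The product of AASS, the alpha-aminoadipic semialdehyde synthase, is a mitochondrial enzyme that joins lysine to 2-oxoglutarate to form saccharopine and then cleaves it, which opens the main route of lysine degradation. The enzymes share no substrate, and inherited loss of either gives a metabolic disorder with raised acylated amino acids or raised lysine. ARGFX and LEUTX are PRD-class homeobox genes of the ETCHbox group, which encode transcription factors of the preimplantation embryo and are normally silent in fibroblasts. In the RefSeq annotation of ARS-UCD2.0, ACY1 lies between RPL29 and ABHD14A and AASS between PTPRZ1 and FEZF1, and neither overlaps these coding neighbours. The counts were made on the older build ARS-UCD1.2, so positions are not given.

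The total expected count ranged from 25947911 to 28163565 in the control samples, from 28519622 to 41554242 with mutant ARGFX, from 31359218 to 35178524 with WT ARGFX and from 26917853 to 35454192 with LEUTX. Levels are given as library-scaled counts (CPM) after TMM normalization, which scales each library so that most genes are level between samples. The transfected genes matched the labels as to ARGFX, LEUTX or empty vector. The ARGFX count covers both its constructs, so it does not tell WT from mutant ARGFX. ARGFX was at 4506, 3175, 3039 and 3100 CPM in the 4 WT ARGFX samples and at 6212, 6606 and 3408 CPM in the 3 mutant ARGFX samples. LEUTX was at 1314, 1416, 1781 and 1621 CPM in its own samples, and each gene stayed under 1 CPM in all other groups. Dermal fibroblast genes were abundant in the control samples, with COL1A1 at 12030 ± 1610 CPM, FN1 at 2455 ± 690 CPM and POSTN at 442 ± 39.9 CPM (SD, n = 4 each). All 6 fibroblast genes looked up are on the study's list for WT ARGFX, and across the groups their levels ran in different directions. FN1 was at 4417 ± 284 CPM with mutant ARGFX, 6044 ± 1650 with WT ARGFX and 7241 ± 2360 with LEUTX (SD, n = 3, 4 and 4). POSTN was at 495 ± 33.7, 839 ± 76.5 and 277 ± 39.8 CPM in these groups, and COL3A1 at 4237 ± 350, 5577 ± 665 and 1813 ± 323 CPM, against 2775 ± 318 CPM in control (SD, n = 4). The part of these shifts in the levels of ACY1 and AASS was not tested. Markers of keratinocytes, endothelial cells, leukocytes and melanocytes could not be matched to identifiers and were not analysed here. One of the WT ARGFX samples without a replicate number stood apart, with the lowest normalization factor of all samples (0.925) and 15591 genes with a count against 15978 to 16079 in the rest of its group. It also held the least FN1 of its group, at 3578 CPM against 6743 to 7092 CPM. The fold changes of ACY1 and AASS against WT ARGFX, and each WT ARGFX mean printed for an amino acid enzyme, are also given without it. Control samples differed among themselves too, with the highest normalization factor of all samples in control 3 (1.1). Control 2 and control 4 held 15394 and 15553 genes with a count, fewer than any WT ARGFX sample.

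ACY1 was lowest with the empty vector and highest with LEUTX. The control samples held 15.5, 17.5, 13.1 and 16.1 CPM. With mutant ARGFX the level was 19.9, 19.6 and 20.5 CPM. WT ARGFX samples held 23.5 and 23.3 CPM in replicates 1 and 2 and 27.0 and 31.7 CPM in the unnumbered pair, the last of these being the sample that stood apart. All LEUTX samples lay far above these, at 67.8, 69.9, 71.1 and 75.3 CPM. The order of the group means was thus control (15.6 ± 1.84), mutant ARGFX (20.03 ± 0.459), WT ARGFX (26.4 ± 3.94) and LEUTX (71.03 ± 3.16 CPM; SD, n = 4, 3, 4 and 4), and no neighbouring groups in it overlapped. The share of all genes with the 4 groups so separated was not counted, and shares for pairs of groups are given with each comparison. Without the sample that stood apart the WT ARGFX mean was 24.6 ± 2.11 CPM (SD, n = 3). Behind these levels stand expected counts of 382 to 2447 per sample. Because the samples are bulk cultures, a higher level in every cell and a larger share of cells that carry the RNA cannot be told apart.

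AASS followed another order, with WT ARGFX at the top. The control samples held 16.8, 13.5, 13.5 and 16.8 CPM. LEUTX samples were at 20.7, 22.05, 19.4 and 19.8 CPM and mutant ARGFX samples at 22.9, 19.0 and 20.7 CPM, ranges that overlap. With WT ARGFX the level reached 29.7 and 27.5 CPM in replicates 1 and 2 and 24.4 and 26.7 CPM in the unnumbered pair. The group means were 15.2 ± 1.90 CPM in control, 20.5 ± 1.19 with LEUTX, 20.9 ± 1.98 with mutant ARGFX and 27.04 ± 2.19 with WT ARGFX (SD, n = 4, 4, 3 and 4), or 27.2 ± 2.67 CPM (SD, n = 3) for WT ARGFX without the sample that stood apart. Control and WT ARGFX each lay clear of every other group, while the LEUTX and mutant ARGFX groups between them could not be ordered. How many of all genes had such a separation was not counted. AASS rested on 374 to 991 expected counts per sample.

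**Figure D1:**
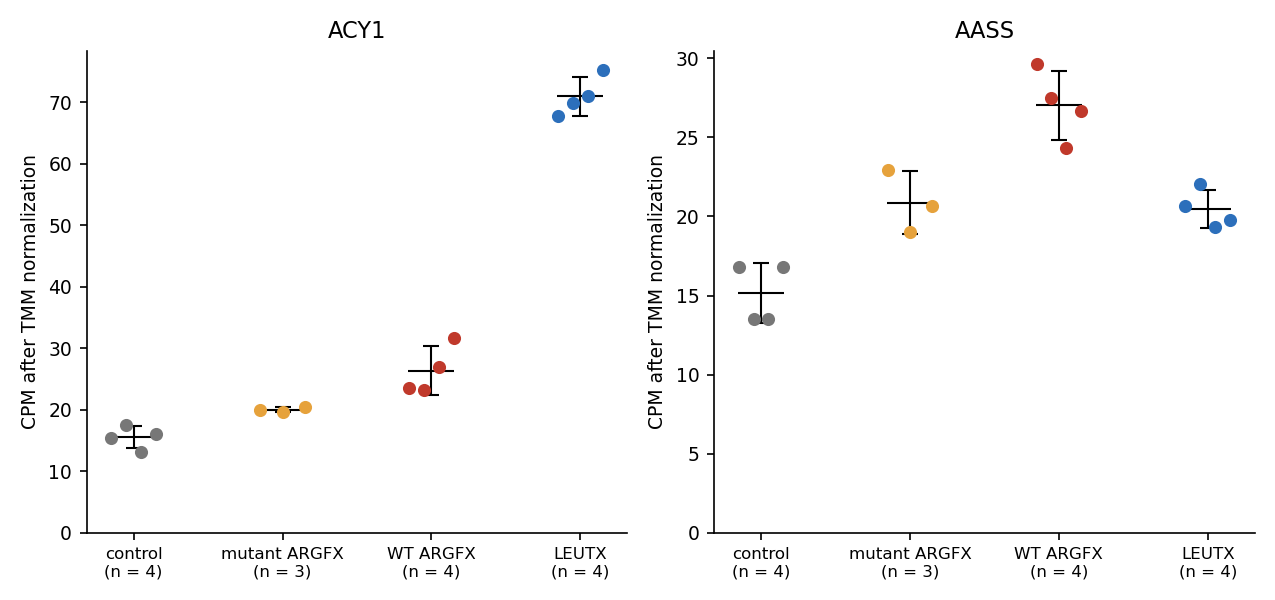
Level of ACY1 (left) and AASS (right) in CPM after TMM normalization, on axes from 0 with different scales; each point is 1 sample, and the black line and bars are the mean and SD of the group. The LEUTX samples stand far above all others for ACY1 (67.8 to 75.3 CPM), whereas for AASS they lie among the mutant ARGFX samples and below WT ARGFX.

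In the comparison that chose the genes, ACY1 was 1.70-fold and AASS 1.78-fold higher with WT ARGFX than in control (log2 fold change 0.76, standard error (SE) 0.11, and 0.83, SE 0.10). Of all 14264 genes, 6.15% were called higher in it, and 4.82% of genes had a larger log2 fold change than ACY1 and 3.70% a larger one than AASS. All WT ARGFX samples lay above all control samples for both genes, as for 12.9% of all genes. In every comparison a gene was called where its adjusted p in edgeR's quasi-likelihood fit was under 0.05 and its fold change over 1.5. Without the WT ARGFX sample that stood apart the log2 fold changes were 0.65 for ACY1 and 0.83 for AASS. Over the numbered samples alone, which leave WT ARGFX with 2, the value for ACY1 was 0.58, just under a fold change of 1.5.

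The comparison of LEUTX with mutant ARGFX shares no group with the one that chose the genes. The fit to all 15 samples takes its estimate of the spread from the control and WT ARGFX samples too. Earlier results of these data were also known when the genes were chosen, so full independence of that choice is not assured. ACY1 was called higher with LEUTX, by a log2 fold change of 1.83 (SE 0.12, edgeR adjusted p = 2.64e-09), and all 4 LEUTX samples lay above all 3 mutant ARGFX samples. In this comparison 10.3% of the genes tested were called higher and 23.6% had all LEUTX samples above all mutant ARGFX samples, while 2.50% had a larger log2 fold change than ACY1. For AASS the log2 fold change was -0.03 (95% interval -0.25 to 0.20, edgeR adjusted p = 0.86). A difference of 1.5-fold in either direction, 0.585 on the log2 scale, lay outside that interval. The median log2 fold change of all genes tested was -0.034. Fitted on the LEUTX and mutant ARGFX samples alone, the log2 fold change was 1.82 for ACY1 (SE 0.072, edgeR adjusted p = 5.42e-09) and -0.03 for AASS (SE 0.09, edgeR adjusted p = 0.805).

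**Figure D2:**
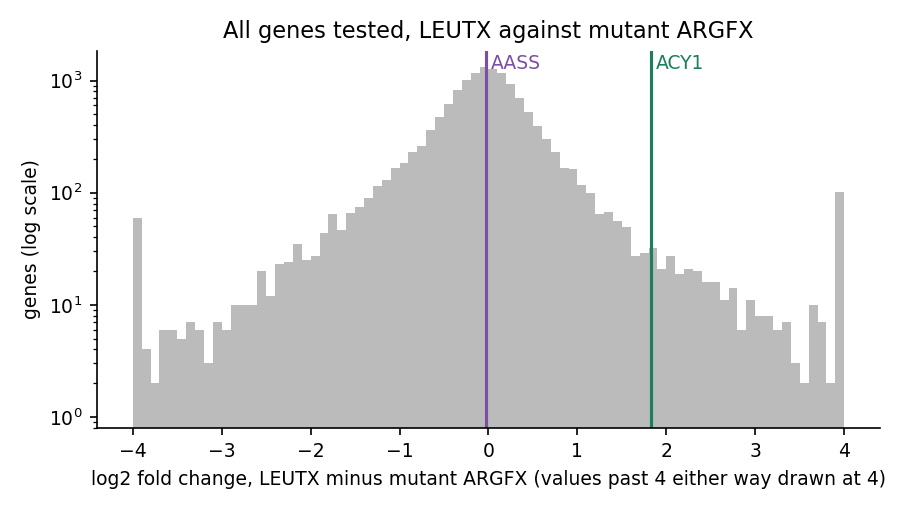
Number of genes (log scale) by log2 fold change of LEUTX minus mutant ARGFX, over all 14264 genes tested, with ACY1 and AASS as vertical lines and values past 4 in either direction drawn at 4. ACY1, at 1.83, lies in the upper tail, with 2.50% of genes beyond it, and AASS, at -0.03, lies at the centre.

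The remaining 4 comparisons each share a group with the one that chose the genes, so their p-values are not independent of that choice. Against control, LEUTX raised ACY1 by a log2 fold change of 2.19 (SE 0.11, edgeR adjusted p = 5.31e-11), where 12.8% of genes were called higher and 1.98% had a larger log2 fold change. AASS was 1.35-fold higher with LEUTX than in control (log2 fold change 0.43, 95% interval 0.22 to 0.65, edgeR adjusted p = 0.00197) and was not called, being under the fold change threshold. The adjusted p alone was passed in this direction by 22.1% of genes. No control sample reached the lowest LEUTX sample for either gene, as held for 20.5% of all genes.

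With mutant ARGFX neither gene was called against control, in a comparison in which 1.26% of genes were called higher. That share rested on 180 genes, and 112 were called higher without mutant ARGFX replicate 1 and 105 without replicate 3. The log2 fold change was 0.37 for ACY1 (95% interval 0.13 to 0.60, edgeR adjusted p = 0.0499) and 0.46 for AASS (0.23 to 0.69, edgeR adjusted p = 0.0123). Both were under a fold change of 1.5, and 4.26% of genes passed the adjusted p alone in this direction. Every mutant ARGFX sample lay above every control sample for both genes, which was also so for 11.6% of all genes. The p of ACY1 stood at the threshold and ranged from 0.0141 to 0.174 when each sample of the series was left out in turn. For AASS the same range was 0.00807 to 0.0793.

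WT and mutant ARGFX were also compared directly. ACY1 was 1.32-fold and AASS 1.295-fold higher with WT ARGFX, with log2 fold changes of 0.40 (95% interval 0.16 to 0.64, edgeR adjusted p = 0.0985) and 0.37 (0.15 to 0.60, edgeR adjusted p = 0.104). Neither was called, and 0.386% of all genes, 55 in number, were called higher in this comparison. All 4 WT ARGFX samples lay above all 3 mutant ARGFX samples for both genes, as they did for 6.57% of all genes. Without the WT ARGFX sample that stood apart the log2 fold changes were 0.29 for ACY1 and 0.37 for AASS, and over the numbered samples alone they were 0.22 and 0.44. The groups overlapped in ARGFX RNA, which was at 5409 ± 1740 CPM (SD, n = 3) with mutant and 3455 ± 703 CPM (SD, n = 4) with WT ARGFX, and its part in these differences was not tested.

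Between LEUTX and WT ARGFX the genes differed in opposite directions. ACY1 was called higher with LEUTX, by a log2 fold change of 1.43 (SE 0.10, edgeR adjusted p = 1.53e-08), a direction called for 9.82% of genes. Without the sample that stood apart this was 1.55. AASS was lower with LEUTX, by a log2 fold change of -0.40 (95% interval -0.61 to -0.19, edgeR adjusted p = 0.00386), which was under the fold change threshold and so not called, where 11.8% of genes were called lower and 21.0% passed the adjusted p alone in that direction. Without the sample that stood apart the log2 fold change of AASS was -0.39 (edgeR adjusted p = 0.00653). No LEUTX sample overlapped a WT ARGFX sample for either gene. Over all genes, 17.2% had every LEUTX sample above every WT ARGFX sample and 19.6% had the reverse.

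**Figure D3:**
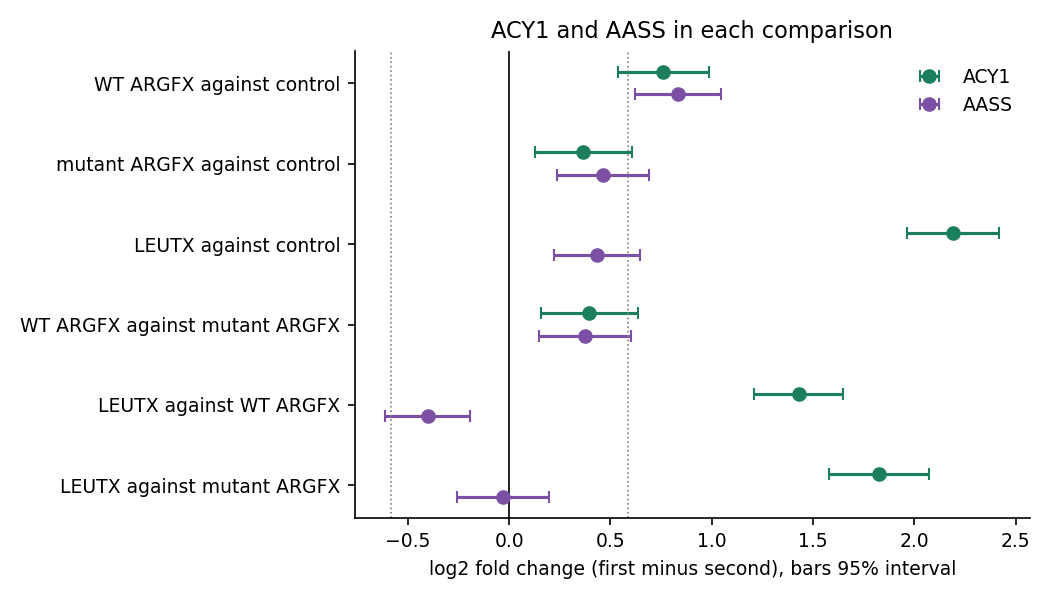
Log2 fold change of ACY1 (green) and AASS (purple) in the 6 comparisons, first group minus second, from the fit to all 15 samples; bars are 95% intervals and dotted lines mark a fold change of 1.5. The ACY1 points lie past 1.4 in all 3 comparisons of LEUTX with another group, while the AASS points lie between the dotted lines in all but WT ARGFX against control.

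The ratio of the ACY1 count to the AASS count within a sample does not depend on how libraries are scaled. It is not corrected for transcript length and so compares samples, not the abundance of the genes. The ratio was 0.920, 1.30, 0.970 and 0.961 in the control samples. Mutant ARGFX samples gave 0.869, 1.03 and 0.992, and WT ARGFX samples gave 0.793 and 0.847 in replicates 1 and 2 and 1.11 and 1.19 in the unnumbered pair. These 3 groups overlapped. In the LEUTX samples the ratio was 3.28, 3.17, 3.67 and 3.80, above every other sample. The means were 1.04 ± 0.175 (SD, n = 4) in control, 0.965 ± 0.0859 (SD, n = 3) with mutant ARGFX, 0.985 ± 0.195 (SD, n = 4) with WT ARGFX and 3.48 ± 0.304 (SD, n = 4) with LEUTX. The WT ARGFX mean was 0.917 ± 0.170 (SD, n = 3) without the sample that stood apart. Both genes were chosen for being higher with WT ARGFX than in control, so nothing is read from the likeness of their ratio in those groups. Over all 15 samples the log2 CPM of ACY1 and AASS had a Pearson correlation of 0.304, and of -0.112 once group means were removed. The points share libraries and groups, so these are descriptions.

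**Figure D4:**
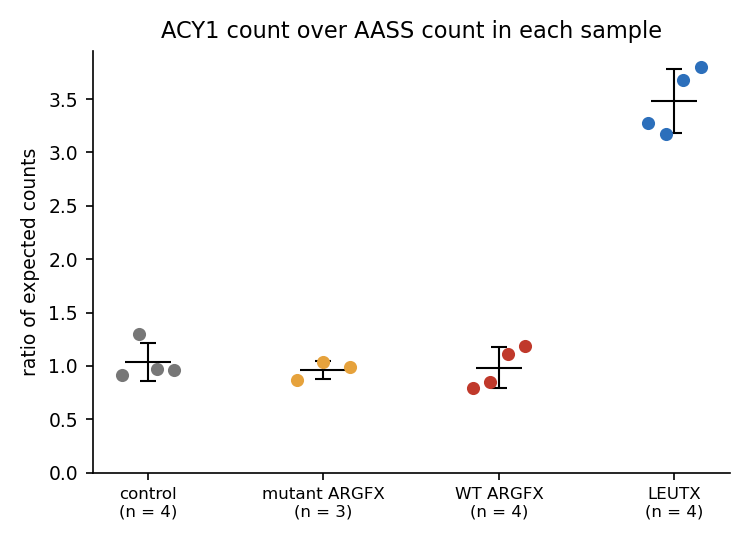
Expected count of ACY1 divided by that of AASS in each sample, with the mean and SD of each group in black, on an axis from 0. The control, mutant ARGFX and WT ARGFX samples lie between 0.793 and 1.30, and the 4 LEUTX samples between 3.17 and 3.80.

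Symbols were read from a shortened copy of the list of genes that the study gives as upregulated with WT ARGFX. Of 54 symbols in 3 lists of amino acid enzymes 12 could be looked up there, ACY1 and AASS included. The others were not analysed here, and whether they are on the full list was not seen. All 12 were tested. The study chose its list on these samples, and the increases of its genes with WT ARGFX are therefore no evidence of a direction. Against mutant ARGFX, LEUTX gave higher calls for 5 and lower calls for 4 of the 10 genes other than ACY1 and AASS, beside 10.3% and 12.1% of all genes. Their median log2 fold change was 0.385, beside -0.034 over all genes. The same values over the rest of the study's list were not counted.

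Among enzymes that act on acylated or terminal residues, ASPA, which removes the acetyl group from N-acetylaspartate, had a log2 fold change of 0.84 with LEUTX against mutant ARGFX (SE 0.16, edgeR adjusted p = 0.000583). ASPA differed between WT and mutant ARGFX too, by 1.59 (edgeR adjusted p = 8.95e-06), and was the only 1 of these 10 genes called there, where 0.386% of all genes were called higher. The 10 genes were chosen on the WT ARGFX samples used in that comparison. Leaving out the sample that stood apart, ASPA differed by 1.503 and was again the only 1 called. It stood at 6.54 ± 1.54 CPM in control and 6.73 ± 0.494 CPM with mutant ARGFX (SD, n = 4 and 3). RIMKLB, which joins glutamate to N-acetylaspartate, rose by 0.68 with LEUTX against mutant ARGFX. ANPEP, the aminopeptidase that removes residues from the amino end of peptides, fell by 1.04 on the log2 scale in that comparison.

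For 4 of the 10 genes, RIMKLB, BCAT2, ASL and MSRB1, the group means ran in the order of ACY1, although none of the 4 was called between WT and mutant ARGFX. The choice of the genes had fixed control below WT ARGFX in that order. The share of all genes with the same order was not counted, so nothing is read from the number of genes that have it. RIMKLB stood at 5.79 ± 1.12 CPM in control, 7.64 ± 0.444 with mutant ARGFX, 11.2 ± 1.08 with WT ARGFX (11.4 ± 1.26 without the sample that stood apart) and 12.2 ± 1.96 with LEUTX, where its WT ARGFX and LEUTX samples overlapped (SD, n = 4, 3, 4, 3 and 4). BCAT2, the mitochondrial aminotransferase of leucine, isoleucine and valine, stood at 8.85 ± 1.12 CPM in control, 13.7 ± 1.47 with mutant ARGFX, 16.8 ± 3.81 with WT ARGFX and 32.4 ± 2.60 with LEUTX (SD, n = 4, 3, 4 and 4). Its WT ARGFX and mutant ARGFX samples overlapped, and the WT ARGFX mean without the sample that stood apart was 14.9 ± 0.348 CPM (SD, n = 3). ASL, which releases arginine from argininosuccinate, stood at 7.86 ± 0.240, 13.6 ± 0.515, 18.4 ± 2.93 and 25.97 ± 1.34 CPM in the same groups. MSRB1, a selenoprotein that repairs oxidised methionine, stood at 42.9 ± 5.40, 56.6 ± 4.44, 77.8 ± 13.9 and 104.7 ± 11.9 CPM, and its WT ARGFX and LEUTX samples overlapped through the sample that stood apart (98.2 CPM). Without the sample that stood apart the WT ARGFX means were 17.06 ± 1.35 CPM for ASL and 70.98 ± 3.72 CPM for MSRB1 (SD, n = 3 each). With LEUTX against mutant ARGFX, BCAT2, ASL and MSRB1 were called higher, by log2 fold changes of 1.24, 0.94 and 0.89, each smaller than that of ACY1. In the comparison of LEUTX with WT ARGFX, BCAT2 was the only 1 of the 10 called higher, by 0.95 (edgeR adjusted p = 2.73e-05), and 5 were called lower, beside 9.82% and 11.8% of all genes. The median log2 fold change was -0.511, beside -0.03 over all genes, and the 10 genes were chosen for being high in these WT ARGFX samples. Without the sample that stood apart BCAT2 differed by 1.14, ASL was called higher too, by 0.63, 5 were called lower, and the median was -0.396.

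Other members went the opposite way with LEUTX. CKB, the brain-type creatine kinase, fell by 1.72 on the log2 scale with LEUTX against mutant ARGFX (SE 0.20, edgeR adjusted p = 3.19e-06), from 30.5 ± 1.70 to 9.23 ± 1.28 CPM (SD, n = 3 and 4), and was also called lower than in control, by -1.09. SUOX, which oxidises sulfite at the end of cysteine breakdown, fell by 0.72 and ALDH1L2, a mitochondrial folate enzyme, fell by 0.72 as well. Both had LEUTX levels near control, at 9.42 ± 0.188 against 9.88 ± 0.238 CPM for SUOX and 35.3 ± 4.79 against 36.5 ± 5.02 CPM for ALDH1L2 (SD, n = 4 each). PYCR1, the last enzyme of proline synthesis, had the same order of means as AASS except that LEUTX and mutant ARGFX traded places, with 39.3 ± 5.45 CPM in control, 56.1 ± 6.00 with mutant ARGFX, 59.6 ± 6.36 with LEUTX and 72.02 ± 11.3 with WT ARGFX (SD, n = 4, 3, 4 and 4), or 66.8 ± 5.03 CPM (SD, n = 3) for WT ARGFX without the sample that stood apart. It was the 1 gene of the 10 not called between LEUTX and mutant ARGFX (log2 fold change 0.09, edgeR adjusted p = 0.647).

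Against control, mutant ARGFX gave higher calls for 5 of the 10 genes, namely ASL, ALDH1L2, SUOX, BCAT2 and CKB, with log2 fold changes from 0.63 to 0.79. No gene of the 10 was called lower, beside 1.26% of all genes called higher and 2.57% called lower, and the median log2 fold change was 0.595, beside 0.009 over all genes. LEUTX gave higher calls for 6 of the 10, namely BCAT2, ASL, MSRB1, RIMKLB, ASPA and PYCR1, and a lower call for CKB, with a median of 0.741 beside -0.033, where 12.8% of all genes were called higher and 14.0% lower. Both comparisons used the control samples on which the genes had been chosen. The shares beside these counts are over all genes, not over the study's list from which the 10 genes come. The paper reports that part of the genes upregulated with WT ARGFX was also upregulated with LEUTX, and a smaller part with mutant ARGFX. Nothing about amino acid enzymes as a class is therefore read from these counts.

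**Figure D5:**
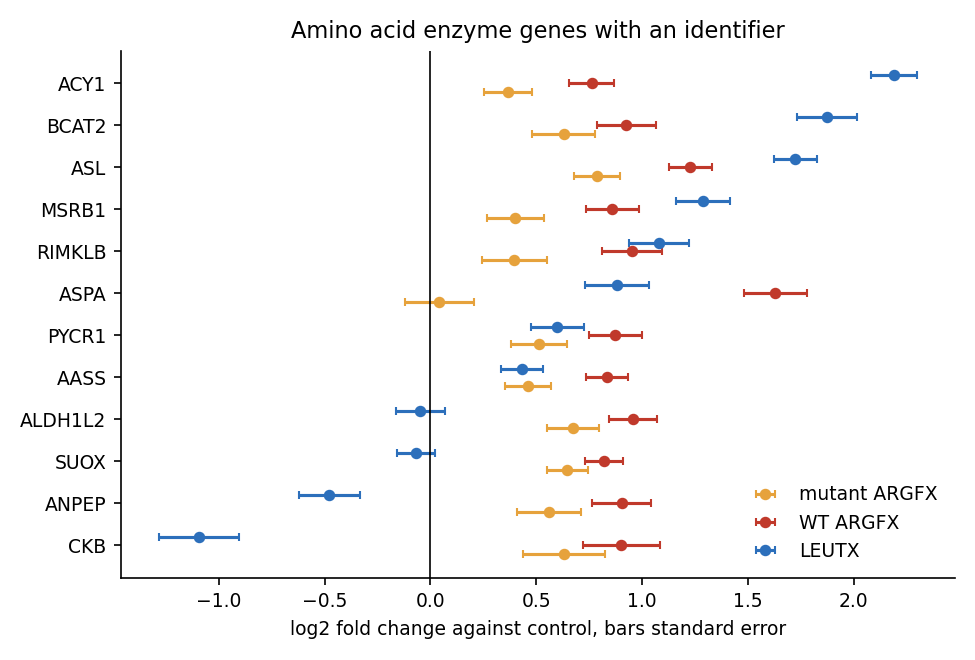
Log2 fold change against control of the 12 amino acid enzyme genes with an identifier, for mutant ARGFX (orange), WT ARGFX (red) and LEUTX (blue); bars are standard errors and genes are sorted by the LEUTX value. All WT ARGFX values lie above 0, as the choice of the genes required, while the LEUTX values run from -1.09 for CKB to 2.19 for ACY1.

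The genes whose levels ran most like those of ACY1 and AASS were sought by Pearson's r of the log2 CPM over the 15 samples, among 10231 genes with a mean of at least 5 CPM, of which 191 carried a symbol. Such values mainly reflect the 4 group means, and the genes with a symbol had been chosen on WT ARGFX. For ACY1 the closest gene was ENSBTAG00000005933.3 (r = 0.995), which stood at 5.89, 7.40, 8.94 and 18.5 CPM on average in control, mutant ARGFX, WT ARGFX and LEUTX. Of genes with a symbol, ACTG2, a smooth muscle actin, came first (r = 0.993), followed by CALCB, a calcitonin-related peptide (0.986), ESYT1, a tether between membranes (0.984), EML2, a microtubule-associated protein (0.983), and EPHX1, a microsomal epoxide hydrolase (0.979). Their size of response differed. Mean CPM with LEUTX and in control was 571 and 6.79 for CALCB, 1966 and 306 for ACTG2 and 63.4 and 19.9 for EML2.

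For AASS the closest gene was PRKCD, a protein kinase C (r = 0.960), at 22.4, 31.96, 32.05 and 39.02 CPM on average in control, mutant ARGFX, LEUTX and WT ARGFX. NUMBL, an adaptor protein related to Numb, followed (0.950), then the collagen genes COL1A2 (0.944) and COL1A1 (0.926) with TRIOBP, an actin-binding protein, between them (0.934). The closest gene without a symbol was ENSBTAG00000014649.4 (0.948). COL1A2 stood at 11938 CPM on average in control and 21096 with WT ARGFX, with 16794 and 17169 CPM for mutant ARGFX and LEUTX. No gene was among the 5 nearest with a symbol for both ACY1 and AASS.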

How the data were processed

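The authors trimmed the reads with Trimmomatic, pseudoaligned them with kallisto 0.46.1 to the ARS-UCD1.2 transcriptome with ETCHbox sequences added, and made the deposited table of gene-level expected counts with tximport, without normalization. Of its values 93.1% are whole to within 1e-06, and 26.5% are 0, so that 90.6% of those above 0 are whole. Pseudoalignment can divide reads between similar transcripts, and use of strand is not given in the sources used here. The members and gene lists were chosen with earlier results of these data known.

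Each sample took its group and number from its title. A pair of WT ARGFX columns share a header and were used without a number. No sample column was left unused. No 2 samples of a group agreed within sampling noise (lowest chi-square per degree of freedom 6.44 over 21 pairs).

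Expected counts were rounded and fitted in edgeR 4.0.16 (R 4.3.3) with its filter on low counts, which left 14264 genes, TMM normalization and the quasi-likelihood test, 1 model covering the 15 samples. Benjamini-Hochberg adjustment ran over all genes. Standard errors were derived from the fold change and F statistic. Calls needed an adjusted p under 0.05 and a fold change over 1.5. The study's further threshold on TPM was not used, since the table holds counts. Intervals are at 95%. The procedure was also run on simulated counts, and no value from that run is given here. The fibroblast genes named are among 6 markers, all with an identifier.

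The genes named were the members, the transfected genes, list members with an identifier, cell type markers, and for each member the 5 genes with a symbol and the 1 without nearest by Pearson's r (prior count 2). Symbols came from the study's list of genes upregulated with WT ARGFX, held here only in part, of whose 232 identifiers read 220 carry one. The list's statistics were not used. The alternatives were DESeq2 1.42.0, its size factors, other filters, fewer samples, a replicate block, no fold change threshold and Spearman's rho.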

Additional observations from a re-analysis of the deposited data

Results flagged for a closer look

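The groups of 4 samples were checked for a sample whose gap to the nearest of the others, as a share of the range of the group, exceeded Dixon's critical value at 95%. Of 59 such groups, over ACY1, AASS, the other enzymes, the fibroblast genes, the transfected genes and the ratio, 8 held one, where chance gives about 2.95. The WT ARGFX sample without a number that had the lowest normalization factor was highest for BCAT2, at 22.5 CPM against 14.5 to 15.2 in the others, and for CKB, at 53.1 CPM against 29.7 to 33.3. The same sample was lowest for FN1, at 3578 CPM against 6743 to 7092, and for FBN1, a microfibril gene, at 1086 CPM against 1559 to 1628. The other unnumbered WT ARGFX sample was lowest for ANPEP, at 13.8 CPM against 18.2 to 18.95. ARGFX was highest in WT ARGFX replicate 1, at 4506 CPM against 3039 to 3175. SUOX was highest in control replicate 3, at 10.2 CPM against 9.73 to 9.80. The ratio of ACY1 to AASS counts was highest among controls in replicate 2, at 1.30 against 0.920 to 0.970. No sample of the control, WT ARGFX or LEUTX group passed that value for the level of ACY1 or AASS. The mutant ARGFX group, with 3 samples, was not checked.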

How the results depend on the processing

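ACY1 was called with LEUTX against each of the other 3 groups, and AASS in none of the 5 comparisons tested, under every alternative that kept the fold change threshold. AASS between LEUTX and mutant ARGFX lay so near 0 that its sign turned with DESeq2's size factors in edgeR (0.0003), without mutant ARGFX replicate 1 (0.0499) and without LEUTX replicate 3 (0.009), with the lowest value -0.0834 when 1 sample was left out. Leaving out 1 sample gave log2 fold changes of 1.81 to 1.87 for ACY1 in that comparison, 2.12 to 2.25 against control and 1.37 to 1.55 against WT ARGFX. With DESeq2 the adjusted p between WT and mutant ARGFX was 0.0422 for ACY1 and 0.0322 for AASS, still under the fold change threshold, and over all alternatives it ranged from 0.0422 to 0.652 and from 0.0322 to 0.449.

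Deviations of like-numbered samples from their group means had a correlation of 0.01 on average over 16 pairs, from -0.298 to 0.375. Pairs of unlike number were not computed for reference, so a batch shared by number is not excluded. In the main fit the number was not treated as a pairing. Over the 13 numbered samples ACY1 in WT ARGFX against control was 0.60 with the replicate block and 0.58 without it, both smaller than 0.76 because the unnumbered WT ARGFX pair with the higher ACY1 levels is left out. The block turned no call of ACY1 or AASS in the comparisons tested.

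Counts of genes called in either direction moved by over 1.5 times with 2 settings, both of which change which genes can be called. With a mean of at least 5 CPM they were 1173 for WT ARGFX, 2402 for LEUTX against control, 1914 for LEUTX against WT ARGFX and 2024 for LEUTX against mutant ARGFX, from 1855, 3817, 3087 and 3198. Without the fold change threshold these were 4414, 6691, 5512 and 5356, and mutant ARGFX against control gave 1461 in place of 546. Of counts in 1 direction, genes called higher for mutant ARGFX against control went from 180 to 112 and 105 without mutant ARGFX replicates 1 and 3, and for WT against mutant ARGFX from 55 to 34 with a mean of at least 5 CPM. Over the numbered samples the latter count was 37 without the replicate block and 28 with it. Of the 10 other amino acid genes, 2 in place of 1 differed between WT and mutant ARGFX without the fold change threshold. Leaving out the WT ARGFX sample with the lowest normalization factor, chosen for the gene list, the levels and the ratio after seeing the data, turned 1 call among the 10, that of ASL between LEUTX and WT ARGFX. By Spearman's rho, 2 of the 5 genes named as most like ACY1 and 3 of the 5 for AASS were kept.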
